A study of Rattus norvegicus with 6 samples.

Results

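Alcohol and aldehyde dehydrogenases were taken by gene symbol from the expression table of rat liver, where 8 of the 10 chosen genes had a row among 19616 genes. They were the alcohol dehydrogenase Adh4 and the aldehyde dehydrogenases Aldh1a1, Aldh1a2, Aldh1b1, Aldh2, Aldh3a1, Aldh3a2 and Aldh7a1, while the symbols Adh1 and Adh5 were not analysed here. Total RNA without ribosomal RNA was sequenced from the livers of 3 rats with hepatic fibrosis (FL) and 3 control rats (CL), with 1 library per rat. All were male SD (Sprague-Dawley) rats, whose age was not given in the sources used here. The FL rats had received CCl4, a solvent toxic to hepatocytes, mixed 1:1 with olive oil by intraperitoneal injection, with 2 mL per kg given 2 times weekly over 5 weeks. Controls got an equal volume of olive oil alone. Rat numbers were 5, 6 and 7 in the CL group and 2, 5 and 12 in the FL group, out of larger groups of animals, and individual values below follow that order.

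Alcohol dehydrogenases (ADH) oxidise alcohols such as ethanol and retinol to aldehydes, and aldehyde dehydrogenases (ALDH) oxidise aldehydes to acids. Hepatocytes are rich in both families. ALDH clear the acetaldehyde formed from ethanol and aldehydes formed by lipid peroxidation. Both families take part in making retinoic acid from retinol by way of retinal. The comparison asks whether expression of these enzymes differed between fibrotic and control liver.

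Expression is given as FPKM (fragments scaled to transcript length and to the number of mapped fragments), a level per length, so genes can be set side by side. Total read numbers are not used here. The most frequent lowest step of 114 U6 small nuclear RNA genes, taken as the worth of 1 read, put the depth relative to CL5 at 0.656 in CL6, 0.84 in CL7, 0.677 in FL2, 0.75 in FL5 and 0.677 in FL12. The tissue label was checked against Alb (albumin), which read 31431 to 33392 FPKM in controls and 24149 to 25209 FPKM in fibrotic livers.

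None of the 8 genes was called higher or lower in the FL group. The 7 genes averaging 0.1 FPKM or more over the rats were tested together with all such genes, 14864 in number, by limma on log2(FPKM + 0.1). A call required a Benjamini-Hochberg adjusted p below 0.05 and at least a 2-fold change, and 10.2% of all genes tested met it, 9.29% as higher and 0.935% as lower in the FL group. Of the 7 genes, 0 met it, and limma's adjusted p ran from 0.102 to 0.88. The adjusted threshold alone, at any fold, was passed by 0 of the 7, against 16.9% of all genes as higher and 1.94% as lower. An unadjusted p below 0.05 was reached by 2 of them in limma, Aldh2 and Adh4, against 35.5% of all genes tested. FL and CL values were without overlap for 1 of the 7, Aldh2, against 40.5% of all genes.

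The log2 difference (FL minus CL) was positive for 4 genes and negative for 3, with a median of 0.09 against 0.29 for all genes tested. The median of all genes moved to 0.08 with median scaling between rats and to -0.05 with quantile normalization. Relative to the median gene, 2 of the 7 lay higher and 5 lower. With median scaling, Aldh1a1 and Aldh3a2 changed sign, to -0.12 and -0.14. All values are from whole liver, in which fewer cells of a type and less RNA per cell cannot be told apart.

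The levels spanned a wide range, and the order of the group means was the same in CL and FL rats. Averaged over the 6 rats, Aldh2 stood at 224 FPKM, Aldh7a1 at 67.9, Aldh3a2 at 57.8, Aldh1a1 at 52.2, Adh4 at 17.1, Aldh1b1 at 3.97, Aldh1a2 at 0.297 and Aldh3a1 at 0.01 FPKM. Aldh2 exceeded Aldh7a1 3.3 times, in 6 of 6 rats and without overlap of their ranges. Aldh7a1, Aldh3a2 and Aldh1a1 did not differ beyond their spread, since Aldh7a1 was above Aldh3a2 in 5 rats and Aldh3a2 above Aldh1a1 in 4. Aldh1a1 was above Adh4 in each rat, but their ranges overlapped, because Aldh1a1 in CL7 and FL2 lay below Adh4 in FL5. The later neighbours in the order, down to Aldh3a1, had ranges without overlap.

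**Figure D1:**
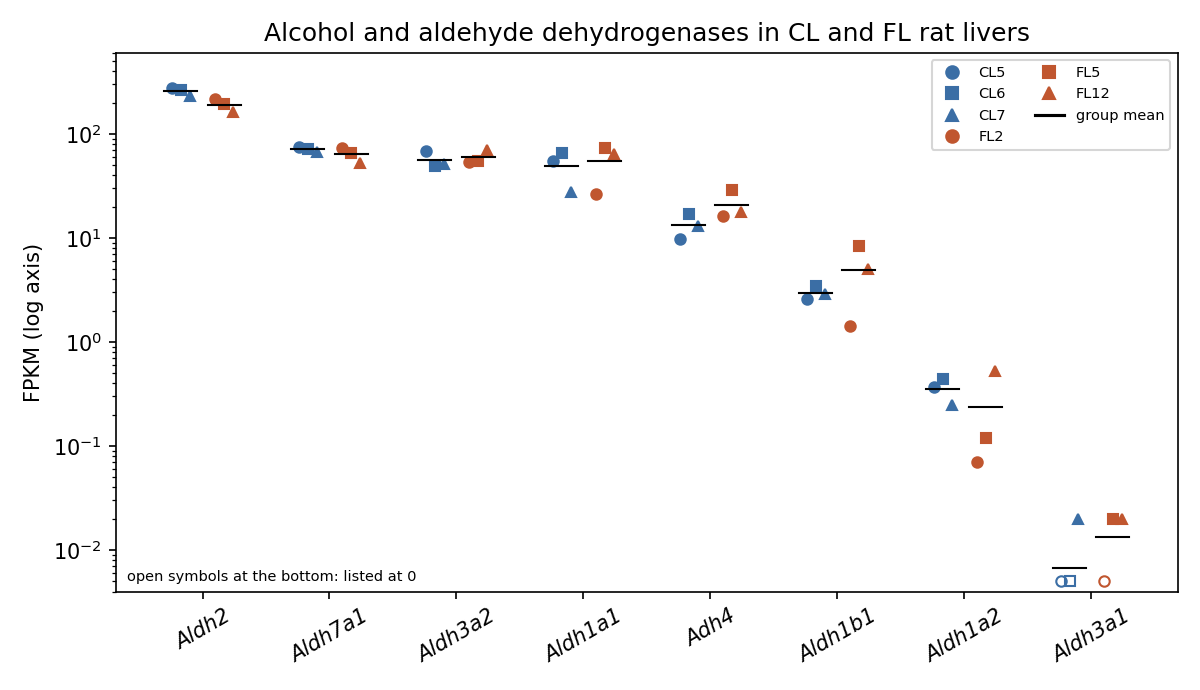
FPKM of the 8 genes on a log axis, with each rat as a point (CL blue, FL orange) and the mean of 3 rats as a line, and with values listed at 0 as open symbols at the bottom. The FL and CL points overlap for each gene except Aldh2, for which the FL points (163 to 217 FPKM) lie below the CL points (230 to 277 FPKM).

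Adh4 (ENSRNOG00000046357, chromosome 2) encodes a class II alcohol dehydrogenase, which acts on retinol and on ethanol at high concentration. It read 9.79, 16.9 and 13.1 FPKM across the controls and 16.2, 28.8 and 17.9 FPKM across the fibrotic livers. FL5 and FL12 were above all controls, while FL2 was slightly below CL6, so the groups overlapped. The means were 13.3 ± 3.55 and 21 ± 6.83 FPKM (SD, n = 3 rats). The log2 difference of 0.64 (standard error 0.26, 95% interval 0.05 to 1.24) was the largest positive one of the 7 and did not pass (limma adjusted p = 0.119). The interval reaches from almost no difference to more than a 2-fold increase. Over the alternatives the Adh4 difference ran from 0.39 without FL5 to 0.84 without CL6. Without FL2 it was 0.81, below that of Aldh1b1 (1.11). Only reads that mapped uniquely were kept, so reads fitting similar ADH genes equally well would be dropped. The Adh4 row is uncertain to that extent. In RefSeq (GRCr8) windows from 250 bases before to 50 after the start, 281 of 289 aligned bases were identical between the genes named Adh4 and Adh6, with genes matched to the table by symbol alone. Other pairs among Adh4, Adh6, Adh6a and Adh7 aligned over fewer bases, 137 to 250 of the 300, of which 67.7% to 72.8% were identical. Most of each window lies before the start, so these identities do not show how alike the transcripts are.

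Other genes for alcohol oxidation were among 16 further ADH and ALDH symbols, of which 15 had a row and 13 were tested. The row named Adh6 (ENSRNOG00000012436) was the most abundant of them, at 332, 307 and 278 FPKM across the controls and 279, 338 and 280.4 FPKM across the fibrotic livers. The groups overlapped almost fully, with a log2 difference of -0.04 (95% interval -0.42 to 0.35). The name is that of the table and was not checked against another annotation, in which the row may be called Adh1, so its identity is uncertain. Adh7, a class IV enzyme best known from stomach, read 6.79 to 9.64 FPKM in controls and 6.52 to 7.97 FPKM in fibrotic livers. Adhfe1, an iron-dependent mitochondrial enzyme chosen after its values were seen, read 59, 60.02 and 54.1 FPKM across the controls and 46.4, 39.9 and 30.1 FPKM across the fibrotic livers. Each of its FL values was under each CL value, as in 4.78% of all genes tested. It passed the adjusted threshold (limma adjusted p = 0.0434), but its log2 difference of -0.59 (standard error 0.17) was under 2-fold, and the adjusted p ran from 0.0174 to 0.117 over the alternatives.

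Aldh2 (ENSRNOG00000001344, chromosome 12) encodes the mitochondrial enzyme that removes most of the acetaldehyde made from ethanol. It read 277, 265 and 230 FPKM across the controls and 217, 192 and 163 FPKM across the fibrotic livers. Each FL rat was below each CL rat, again as in 4.78% of all genes tested. From means of 257 ± 24.7 and 190.4 ± 27.1 FPKM (SD, n = 3 rats), the log2 difference was -0.44 (standard error 0.17, 95% interval -0.82 to -0.06), which did not pass (limma adjusted p = 0.102). It was -0.73 relative to the median gene, -0.67 with median scaling and -0.34 with quantile normalization. Over the alternatives limma's adjusted p ran from 0.0447, without FL2, to 0.246, without FL12, and no alternative took the difference to 2-fold.

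Hepatocyte markers differed in direction among themselves. The FPKM of 8 such genes summed to 52093, 49496 and 50126 across the controls and 44643, 43996 and 42779 across the fibrotic livers, with Alb the most abundant and none listed at 0. The sums were lower in each FL rat, but so was the FPKM of all genes. That total was 309425, 340467 and 315259 across the controls and 309226, 272350 and 272110 across the fibrotic livers. Alb made up most of each sum, so the sums mainly follow that gene. Of the 8 genes, 5 had a positive log2 difference and 0 were called by limma, beside 10.2% of all genes tested. Alb, Ttr and Hnf4a lay below all controls in each FL rat, whereas the secreted proteins Apoa1 and Tf lay above them. Among all genes tested, 4.78% lay below all controls in this way and 35.7% above. Apoa1 read 1126 to 1183 FPKM in controls and 1535 to 2135 FPKM in fibrotic livers, and Tf read 5796 to 5974 and 6943 to 7746 FPKM. The part of hepatocyte content in the Aldh2 values was not tested.

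Aldh1b1 (ENSRNOG00000011497, chromosome 5) encodes a mitochondrial enzyme related to Aldh2 that also accepts acetaldehyde. It read 2.59, 3.47 and 2.88 FPKM across the controls and 1.44, 8.36 and 5.08 FPKM across the fibrotic livers. FL2 was the lowest of the 6 rats, and FL5 and FL12 were the highest. The SD was 15% of the mean in the CL group and 69.8% in the FL group. The log2 difference of 0.41 (standard error 0.54, 95% interval -0.83 to 1.66) did not pass (limma adjusted p = 0.612). Single rats decided this result. Without FL2 the difference was 1.11 and met both limits (limma adjusted p = 0.0211, the lowest of a range up to 0.945), and without FL5 it was -0.12.

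The summed FPKM of the 7 ALDH genes was 479, 456 and 379 across the controls and 372, 395 and 355 across the fibrotic livers. The groups overlapped, and the sum was 0.136% ± 0.0174 of all FPKM in the CL group and 0.132% ± 0.0126 in the FL group (SD, n = 3 rats). Aldh2 held 57.9%, 58.1% and 60.6% of the sum across the controls and 58.3%, 48.5% and 45.7% across the fibrotic livers. FL2 was within the range of the controls, and FL5 and FL12 were below it.

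Aldh1a1 (ENSRNOG00000017619, chromosome 1) encodes a cytosolic retinal dehydrogenase that also oxidises aldehydes from lipids. It read 55.1, 66.2 and 27.6 FPKM across the controls and 26.5, 73.4 and 64.6 FPKM across the fibrotic livers. CL7 and FL2 were low, and the other rats lay between 55.1 and 73.4 FPKM. The highest rat exceeded the lowest 2.4 times in the CL group and 2.77 times in the FL group. The log2 difference was 0.11 (standard error 0.44, 95% interval -0.90 to 1.11, limma adjusted p = 0.88), and it was -0.27 without CL7 and 0.56 without FL2. With neither rat, a choice made after their values were seen, it was 0.19 (limma adjusted p = 0.437, in a range of 0.266 to 0.938 over the alternatives).

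Some other genes were also low in these rats, and those named next were chosen after their values were seen. Aldh1a7, a close relative of Aldh1a1 on the same chromosome, read 12.2, 9.44 and 0.28 FPKM across the controls and 2.88, 9.44 and 9.69 FPKM across the fibrotic livers. Reads fitting such similar genes equally well would be dropped, so both rows are uncertain to that extent. Aldh1l1, a folate enzyme, read 71.5, 89.7 and 59.6 FPKM across the controls and 39.6, 85.8 and 74.1 FPKM across the fibrotic livers. Both were lowest in CL7 and FL2 within their groups. Of the 7 genes followed, 2 (Aldh1a1 and Aldh1a2) were lowest in both of these rats within their groups, or 28.6%, near the 21.5% of all genes tested. Of all 20 ADH and ALDH genes tested, 9 were, a count that includes Aldh1a1, Aldh1a7 and Aldh1l1, which led to the choice of these rats.

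Aldh1a2 (ENSRNOG00000055049, chromosome 8) encodes the retinal dehydrogenase of mesenchymal and mesothelial cells. It read 0.37, 0.44 and 0.25 FPKM across the controls and 0.07, 0.12 and 0.53 FPKM across the fibrotic livers. FL2 and FL5 were the lowest of the 6 rats, and FL12 was the highest. The log2 difference of -0.64 (standard error 0.52, 95% interval -1.84 to 0.57) did not pass (limma adjusted p = 0.41). At such levels it depended on the pseudocount, with -0.14 at 1 and -0.99 at 0.01. Without FL12 it was -1.21 (limma adjusted p = 0.0963, the lowest of a range up to 0.725), and without FL2 it was -0.26.

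Mesothelial cell markers did not move in one direction. Msln (mesothelin) read 1.8, 1.83 and 1.91 FPKM across the controls and 0.40, 0.65 and 2.31 FPKM across the fibrotic livers. Upk3b, a uroplakin of mesothelium, read 0.45, 0.98 and 0.85 FPKM across the controls and 0.25, 0.20 and 1.12 FPKM across the fibrotic livers. FL2 and FL5 were below all controls for both genes. Upk1b read 0.47, 0.50 and 0.46 FPKM across the controls and 0.04, 0.20 and 0.43 FPKM across the fibrotic livers, and Lrrn4 read 0.40, 0.75 and 0.18 FPKM and 0.14, 0.06 and 0.61 FPKM. FL2 and FL5 were below all controls for these genes too, and so was FL12 for Upk1b. Wt1, a transcription factor of mesothelium, lay in the other direction, at 0.18, 0.08 and 0.01 FPKM across the controls and 0.18, 0.43 and 0.54 FPKM across the fibrotic livers (log2 difference 1.37, standard error 0.50, limma adjusted p = 0.0927). Its FL5 and FL12 values were above all controls. Gpm6a, the most abundant, read 3.61, 2.15 and 5.41 FPKM across the controls and 2.7, 2.7 and 2.37 FPKM across the fibrotic livers. FL12 was the highest FL rat for 5 of the 6 markers, all but Gpm6a. The 6 markers summed to 6.91, 6.29 and 8.82 FPKM across the controls and 3.71, 4.24 and 7.38 FPKM across the fibrotic livers, and none was listed at 0. The log2 differences were positive for 1 of the 6 and negative for 5. An unadjusted p below 0.05 in limma was reached by 1 (Wt1), beside 35.5% of all genes tested. Limma called 0 of the 6, beside 10.2%. Single rats changed these calls, as Msln was called lower without FL12 (log2 difference -1.67) and Wt1 higher without FL2 (1.72). The part of mesothelial cells in the Aldh1a2 values was not tested.

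The 9 stellate cell and myofibroblast markers summed to 87.6, 91.3 and 84.1 FPKM across the controls and 203, 542 and 490.4 FPKM across the fibrotic livers. Col3a1, a fibrillar collagen, was the most abundant, none of the 9 was listed at 0, and 4 of the 8 tested rose by limma (Col1a1, Col3a1, Des and Pdgfrb), beside 9.29% of all genes tested, with Acta2 and Tagln called as well without FL2. Among the FL rats, 8 of the 9 markers and the sum were highest in FL5, and Pdgfrb was highest in FL12. The part of these cells in the Aldh1a2 values was not tested.

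**Figure D2:**
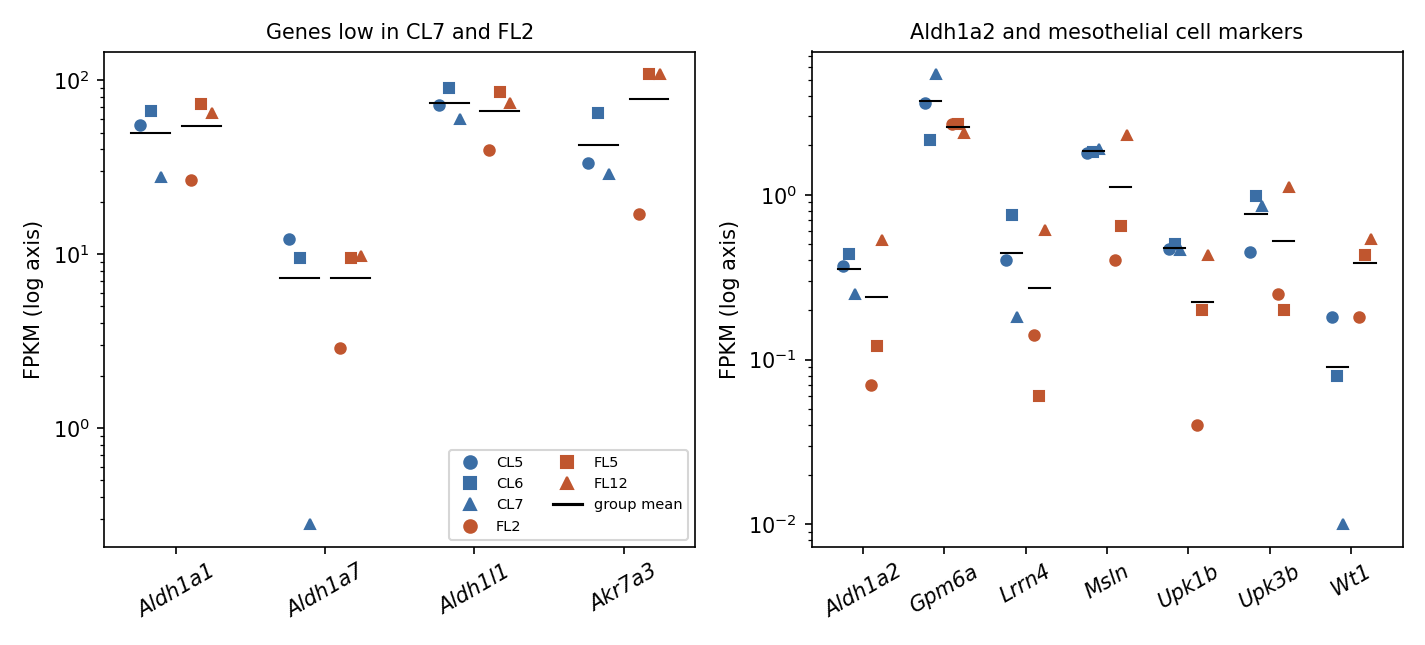
FPKM on log axes, with each rat as a point (CL blue, FL orange, 1 shape per rat) and the mean of 3 rats as a line, for Aldh1a1 and 3 other genes on the left and for Aldh1a2 and 6 mesothelial cell markers on the right. On the left the 3 other genes were chosen because CL7 and FL2 are the lowest of their groups, as they are for Aldh1a1. This holds for 21.5% of all genes tested. On the right FL12 is the highest FL rat for each gene except Gpm6a.

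Aldh1a3 (ENSRNOG00000052070, chromosome 1), a further retinal dehydrogenase, was called higher. It read 2.9, 3.27 and 2.67 FPKM across the controls and 7.73, 9.5 and 9.35 FPKM across the fibrotic livers. All FL rats were above all CL rats, as in 35.7% of all genes tested. Aldh1a3 rose with a log2 difference of 1.55 (standard error 0.14, 95% interval 1.23 to 1.88, limma adjusted p = 0.00165) and was called under 15 of 15 alternatives. In each FL rat its level was above those of Aldh1b1 and Aldh1a2 and below that of Aldh1a1.

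Of the 13 further ADH and ALDH genes tested, 2 rose (Aldh1a3 and Aldh3b1) and 0 fell, beside 9.29% and 0.935% of all genes tested, with a median log2 difference of -0.05 against 0.29 for all genes tested. Besides Adh6, the most abundant were Aldh9a1, which makes carnitine and betaine precursors, and Aldh6a1, which acts in valine breakdown. Aldh9a1 read 284 ± 32.5 and 274 ± 28.8 FPKM in the CL and FL groups, and Aldh6a1 read 179.6 ± 6.21 and 166 ± 15.3 FPKM (SD, n = 3 rats). Both overlapped between the groups.

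**Figure D3:**
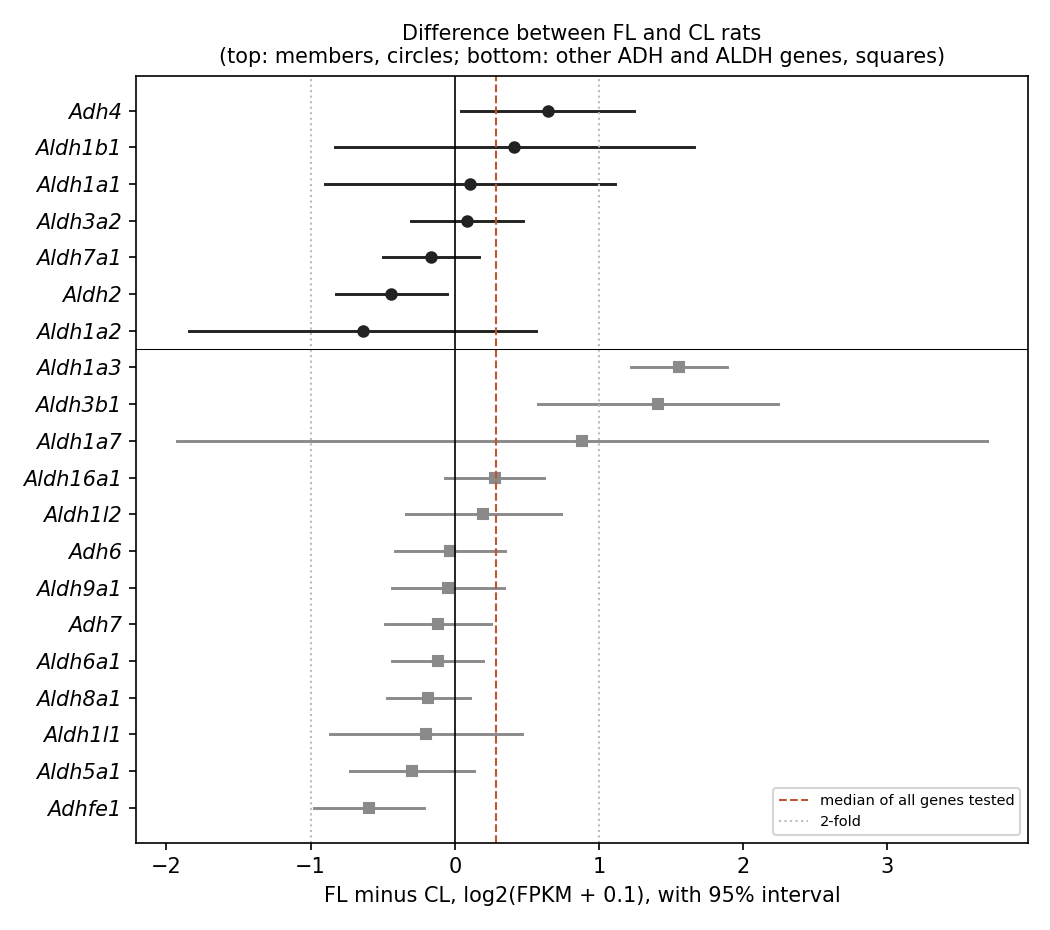
Log2 difference (FL minus CL) on the scale of log2(FPKM + 0.1) with limma's 95% interval, for 7 genes (circles, top) and 13 further ADH and ALDH genes (squares, bottom), with a dashed line at the median of all genes tested (0.29) and dotted lines at a 2-fold change. Only the interval of Aldh1a3 (1.23 to 1.88) lies wholly beyond a 2-fold change, and that of Aldh1a7 (-1.93 to 3.69) is the widest.

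Of the genes that handle retinoids around the retinal dehydrogenases, 19 were tested, of which 1 rose and 0 fell, beside 9.29% and 0.935% of all genes tested, with a median log2 difference of -0.07 against 0.29. Cyp26b1, which degrades retinoic acid, read 1.27, 2.32 and 0.69 FPKM across the controls and 0.52, 0.58 and 0.63 FPKM across the fibrotic livers, without overlap. It did not pass (log2 difference -1.03, limma adjusted p = 0.0995) but was called lower without CL7 (-1.43) and with quantile normalization (-1.55). Rarg, a retinoic acid receptor, read 0.95, 1.25 and 0.92 FPKM across the controls and 2.57, 2.92 and 3.05 FPKM across the fibrotic livers. It rose with a log2 difference of 1.38 (standard error 0.18, limma adjusted p = 0.00482), which was 0.92 with a pseudocount of 1 and 0.91 with quantile normalization, both under 2-fold. Rara, another such receptor, was higher without overlap and passed the adjusted threshold at under 2-fold (log2 difference 0.69, limma adjusted p = 0.025). Over the alternatives limma's adjusted p for Rara ran from 0.0191 to 0.208. Rbp4, the carrier of retinol in plasma, was the most abundant, at 1963 to 2225 FPKM in controls and 1849 to 1980 FPKM in fibrotic livers. Rdh7, a retinol dehydrogenase, read 107, 97.2 and 92.2 FPKM across the controls and 87.1, 64.1 and 69.4 FPKM across the fibrotic livers. Its groups did not overlap, but it did not pass (log2 difference -0.43, limma adjusted p = 0.0786).

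Aldh3a2 (ENSRNOG00000002342, chromosome 10) encodes the fatty aldehyde dehydrogenase of the endoplasmic reticulum. It read 68.1, 49.3 and 51.3 FPKM across the controls and 53.5, 55.3 and 69.5 FPKM across the fibrotic livers. The groups overlapped, with a log2 difference of 0.09 (standard error 0.17, 95% interval -0.30 to 0.47, limma adjusted p = 0.74). Aldh7a1 (ENSRNOG00000014645, chromosome 18), which acts in lysine breakdown, read 75.4, 71.8 and 67.3 FPKM across the controls and 73.4, 66.3 and 53.1 FPKM across the fibrotic livers. FL12 was the lowest rat, and FL2 was within the range of the controls. The log2 difference was -0.16 (standard error 0.15, 95% interval -0.50 to 0.17, limma adjusted p = 0.445). It was -0.03 without FL12 and -0.39 with median scaling. The intervals of Aldh2, Aldh3a2 and Aldh7a1 excluded a 2-fold change in either direction, as did those of 54.3% of all genes tested.

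Aldh3a1 (ENSRNOG00000002331, chromosome 10), which oxidises aromatic and medium-chain aldehydes, was listed at 0 in CL5, CL6 and FL2 and at 0.02 FPKM in CL7, FL5 and FL12. It was too low to be tested, and no fold change is given. Aldh3b1, a relative acting on longer aldehydes, read 0.22, 0.19 and 0.06 FPKM across the controls and 0.50, 0.57 and 0.59 FPKM across the fibrotic livers. All FL rats were above all CL rats, and it rose with a log2 difference of 1.41 (standard error 0.36, limma adjusted p = 0.0333). The call held in 4 of 14 alternatives, with adjusted p from 0.0269 to 0.177, and was lost when any rat except FL2 was left out. With a pseudocount of 1 the difference was 0.43.

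Aldh3a1 is a known target of the aryl hydrocarbon receptor, and of 7 genes tested for this receptor and its targets, 2 rose and 0 fell, beside 9.29% and 0.935% of all genes tested, with a median log2 difference of 0.11 against 0.29. Cyp1a1, a classical target that oxidises aromatic hydrocarbons, read 1.17, 1.25 and 1.03 FPKM across the controls and 8.65, 3.62 and 5.91 FPKM across the fibrotic livers. It rose with a log2 difference of 2.22 (standard error 0.29, limma adjusted p = 0.00456). Cyp1b1, a related enzyme, read 0.02, 0.06 and 0.04 FPKM across the controls and 0.32, 0.85 and 0.68 FPKM across the fibrotic livers. It rose with a log2 difference of 2.29 (standard error 0.41, limma adjusted p = 0.0109), which was 0.62 and under 2-fold with a pseudocount of 1.

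The 3 most abundant genes of that list did not pass. Cyp1a2 read 353 to 388 FPKM in controls and 520.5, 187 and 316 FPKM across the fibrotic livers, on both sides of the controls. Nqo1, a quinone reductase, read 13.3 to 17.6 FPKM in controls and 38.3, 7.42 and 72.6 FPKM across the fibrotic livers, and was called higher when FL5 was left out. Ahr, the receptor itself, read 17.8 to 31.5 FPKM in controls and 11.4 to 18.1 FPKM in fibrotic livers (log2 difference -0.74, limma adjusted p = 0.0795).

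Of 4 other enzymes for ethanol and acetate, 0 were called by limma, beside 10.2% of all genes tested, and 2 had an unadjusted p below 0.05 (Cat and Acss1), beside 35.5%. Cat (catalase), which oxidises ethanol in peroxisomes, read 883 to 964 FPKM in controls and 475, 716 and 492 FPKM across the fibrotic livers. The groups did not overlap (log2 difference -0.73, standard error 0.23, limma adjusted p = 0.0652). Cyp2e1, the microsomal ethanol oxidase that also activates CCl4, read 705, 535 and 601 FPKM across the controls and 549, 719.99 and 888 FPKM across the fibrotic livers. FL12 and FL5 were above all controls and FL2 was within their range (log2 difference 0.21, 95% interval -0.36 to 0.78, limma adjusted p = 0.571). Acss1, which activates acetate in mitochondria, read 0.31, 0.32 and 0.27 FPKM across the controls and 0.54, 0.87 and 0.63 FPKM across the fibrotic livers. The groups did not overlap, and its limma adjusted p of 0.05002 (log2 difference 0.94) just missed the threshold, while it was called higher without FL2 (1.08) and with a pseudocount of 0.01 (1.13). Acss2, which activates acetate in the cytosol, read 17.3 to 33.8 FPKM in controls and 19.7 to 20.8 FPKM in fibrotic livers.

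Of 14 other aldehyde-handling enzymes tested, 1 rose and 1 fell, beside 9.29% and 0.935% of all genes tested, and their median log2 difference was 0.29, as for all genes. Akr1b7 was called higher as well when FL5 was left out. Akr1b8, an aldo-keto reductase, read 0.43, 0.40 and 0.57 FPKM across the controls and 1.29, 1.97 and 1.73 FPKM across the fibrotic livers. It rose with a log2 difference of 1.63 (standard error 0.24, limma adjusted p = 0.00612), which was 0.85 and under 2-fold with a pseudocount of 1. Aox4, an aldehyde oxidase, fell with a log2 difference of -4.16 (standard error 0.24, limma adjusted p = 3.64e-04). Aox1, its more abundant relative, read 194.2, 194.9 and 162 FPKM across the controls and 211, 322 and 278 FPKM across the fibrotic livers. The groups did not overlap, but it did not pass (log2 difference 0.54, limma adjusted p = 0.0874).

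Akr1a1, an aldehyde reductase, read 49 to 70.3 FPKM in controls and 76.1 to 84.5 FPKM in fibrotic livers (limma adjusted p = 0.117). Akr7a3, an aflatoxin aldehyde reductase, read 33.5, 64.9 and 28.7 FPKM across the controls and 17, 108.4 and 108.4 FPKM across the fibrotic livers. CL7 and FL2 were the lowest of their groups, as in 21.5% of all genes tested. Its log2 difference of 0.56 (standard error 0.69, limma adjusted p = 0.59) became 1.45 without FL2 and was then called, with an adjusted p of 0.0245 in limma, the lowest of a range up to 0.934.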

How the data were processed

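RNA sequencing of 6 rat livers, 3 per group, was analysed from 1 table of genes. The authors trimmed reads with FASTX-Toolkit 0.0.13, mapped them with TopHat2, kept reads that mapped uniquely and deposited FPKM with 2 decimals for each rat. The genome is named as GRCH38, whereas the gene identifiers are Ensembl's for the rat. A further 2 columns of values were not used. FPKM are not counts, so limma 3.58.1 in R 4.3.3 was applied to log2(FPKM + 0.1), its prior variance depending on mean expression, in place of the edgeR test of the study. A fold change is on that scale, which understates the change of low genes. Errors are SD over 3 rats or moderated standard errors. In pairs of rats, 0.866% to 2.54% of genes above 0 had identical values, so no library was counted as a duplicate. Read numbers per rat were not used here, and values under 1 FPKM rest on the fewest reads.

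The genes followed and the lists were chosen with earlier results of these data known. Genes named are all 8 with a row, those called in a list, the 3 most abundant of each list, the most abundant marker of each cell type and those listed at 0, and the 3 genes most like the member with the largest difference. Any other gene named, including Adh7, Acss1, Cyp26b1, Akr1b7 and single hepatocyte, endothelial, cycling, mesothelial and stellate cell markers, was chosen after its values were seen. A gene that this rule would name is not reported here. Alternatives comprised pseudocounts of 1 and 0.01, other filters on low values, 2 scalings, a constant or a robust prior, any fold change, and leaving out each rat. Leaving out CL7 together with FL2 was added after seeing the data. The procedure was tested on simulated data. Further work used Python 3.11.15, pandas 2.3.3, Biopython 1.88 and matplotlib 3.10.9.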

Additional observations from a re-analysis of the deposited data

How the results depend on the processing

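The rats were divided at random into the CL and FL groups, so the design held no pairs. The number 5 in both groups does not join CL5 to FL5. Among all genes, 1381 were called higher and 139 lower in the FL group. With a pseudocount of 1 these were 462 and 72, without a filter 846 and 78, with quantile normalization 456 and 227, and at any fold change 2518 and 288. Those higher were 854 when an average of 1 FPKM was required and 824 with median scaling. Leaving out 1 rat gave 740 (without CL7) to 1831 (without FL2) higher and 81 (without CL6 or CL7) to 160 (without FL2) lower. Of the 7 genes followed, 0 were called in each alternative except without FL2, where 1 (Aldh1b1) was higher. Adh4, Aldh2, Aldh7a1 and Aldh1a2 kept their direction wherever they were tested, which for Aldh1a2 left out the filter at 1 FPKM. The log2 difference of Aldh1a1 turned with median scaling (-0.12), without CL7 (-0.27), FL5 (-0.17) or FL12 (-0.08), and was at most 0.56 (without FL2). Aldh3a2 turned with median scaling (-0.14), without CL6 (-0.0015) or FL12 (-0.032), and was at most 0.23 (without CL5). Aldh1b1 ran from -0.12 (without FL5) to 1.11 (without FL2). Aldh1a7 turned without CL7 (-0.73) and without CL7 and FL2 (-0.16), and was at most 1.78 (without CL5). The cause was not tested. With 3 rats a group, the intervals of Adh4, Aldh1a1, Aldh1a2 and Aldh1b1 include a 2-fold change.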

Other observations

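The genes whose values over the 6 rats were most like those of Adh4 were Bri3bp, Trim68 and Pde7b, among 10534 genes averaging at least 1 FPKM. The mean absolute distance of their centred log2(FPKM + 0.1) from that of Adh4 was 0.0788, 0.0841 and 0.0884. Bri3bp read 1.33, 1.9 and 1.47 FPKM across the controls and 1.95, 3.36 and 2.07 FPKM across the fibrotic livers. As for Adh4, FL5 was the highest rat and CL5 the lowest.

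Markers of other cell types gave further differences among the FL rats. Of 6 macrophage markers, 3 rose by limma (Cd68, Csf1r and Marco), beside 9.29% of all genes tested, although Csf1r was under 2-fold with median scaling, with quantile normalization or without FL5. Their sum was 88.7 to 93.2 FPKM in controls and 218, 194 and 119 FPKM across the fibrotic livers, with Clec4f the most abundant. Of 4 cycling cell markers, 1 rose by limma (Mki67, the most abundant), beside the same 9.29%, a call that held in 4 of 15 alternatives and was lost without any rat except FL2. Without FL2, Top2a, Cdk1 and Ccnb1 were called higher as well, so that 4 of 4 passed, when 1831 of all genes were called higher. Their sum was 2.19 to 4.01 FPKM in controls and 3.05, 14.7 and 12.5 FPKM across the fibrotic livers. FL2, the FL rat with the lowest Aldh1a1 and Aldh1b1, was within the range of the controls for that sum. It was the lowest FL rat for 5 of the 7 genes followed and for 51.2% of all genes tested. A link between these values was not tested.

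Cholangiocyte markers (4 genes, Epcam the most abundant) summed to 5.26 to 7.68 FPKM in controls and 5.18 to 10.3 FPKM in fibrotic livers. Endothelial cell markers (4 genes, Kdr the most abundant) summed to 55.3 to 63.5 and 57.8 to 75.4 FPKM, and Pecam1 was not analysed here. Lymphocyte markers (5 genes, Nkg7 the most abundant) summed to 1.1 to 1.37 and 1.35 to 2.05 FPKM, with Ms4a1 listed at 0 in CL5. Of the 12 genes of these lists that were tested, 0 were called by limma, beside 10.2% of all genes tested. The endothelial log2 differences were positive for 2 genes, Stab2 (0.75) and Lyve1 (0.30), and negative for 2, Kdr (-0.21) and Clec4g (-0.27). Of these, Stab2 passed the adjusted threshold in limma (adjusted p = 0.0143) at less than a 2-fold change.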
